A study of Lumnitzera littorea with 6 samples.

Results

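In the mangrove tree Lumnitzera littorea, 15 of 26139 gene models had clear expression in every library of chilled seedlings and almost no reads in control seedlings. They were chosen by their measured levels. A member had at least 5 CPM (its count per 1000000 counts of the library) in each of 3 chilling libraries and under 0.5 CPM in each of 3 control libraries. The chilled seedlings had days of 8°C and nights of 5°C, for a time that is not stated. The control seedlings had days of 25°C and nights of 23°C, for 48 h. All were wild type and 1 year old, with 12 h light and 12 h dark, and each library was made from RNA of leaves, shoots and roots, in unstated proportions. No label says that replicates were different plants, so their spread may be partly technical. Totals were 27982493 to 31610174 counts in the chilling libraries and 36161485 to 41203847 counts in the control libraries.

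Chilling is a temperature drop that stays above freezing. In plants it is known to stiffen membranes, to slow photosynthesis and growth, and to switch on transcription factors of the CBF/DREB family together with their cold-regulated targets, some of which are barely transcribed in the warm. The deposited table gives gene models by identifier, without a gene name, sequence or position, so no function can be attached to the 15. Their membership of the cold-response families is therefore unknown here, and what follows describes how strongly, how evenly and beside which other identifiers they were expressed. The labels give no series of time points, so the data compare 2 groups and follow no gene model over time. The chilling time is not stated, so any difference in duration cannot be told apart from temperature.

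The rule picked a small corner of the transcriptome. Under 0.5 CPM in every control library were 6836 gene models, of which 5962 also stayed under 0.5 CPM in every chilling library. Another 874 reached 0.5 CPM in at least 1 chilling library, but only 123 reached 1 CPM in all 3, 52 reached 2 CPM, 15 reached 5 CPM and 10 reached 10 CPM. The members thus made up 0.219% of the models that were near silent in the control group. They made up 0.117% of the 12859 models with at least 5 CPM in every chilling library. Of those 12859 models, 11951 also reached 10 CPM in some control library, and 25 had their highest control level between 0.5 and 1 CPM, just beyond the limit.

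**Figure D1:**
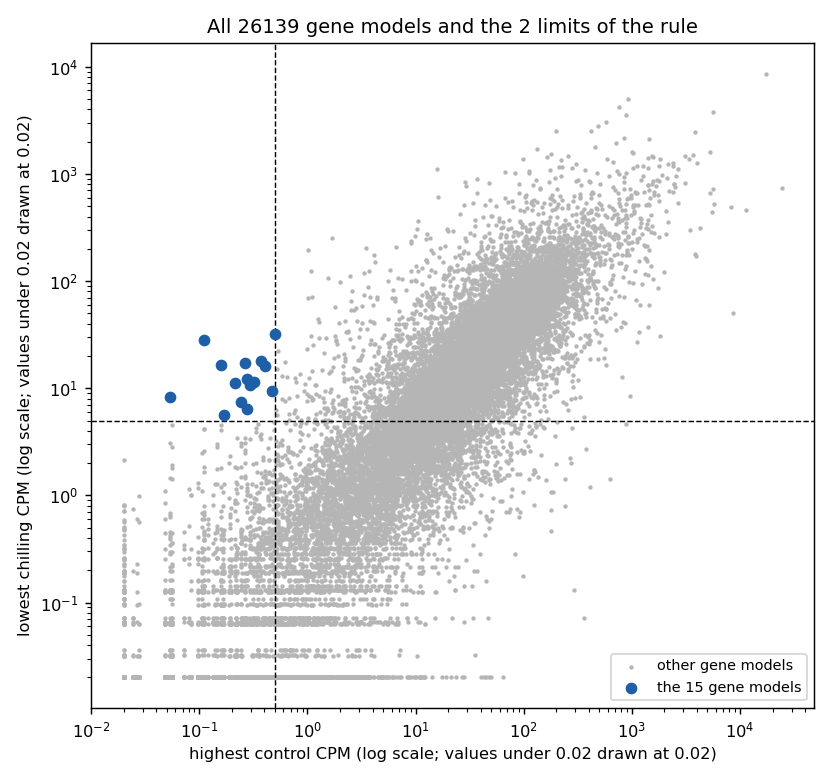
Each point is 1 of the 26139 gene models, with its highest control CPM on the horizontal axis and its lowest chilling CPM on the vertical axis, both on log scales with values under 0.02 drawn at 0.02. Dashed lines mark the limits of 0.5 and 5 CPM, and the 15 members lie alone in the upper left corner, where 12844 other models with at least 5 CPM under chilling lie to the right of the control limit.

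Near silent did not mean absent in the control group. The members had 578 to 4993 counts pooled over the 3 chilling libraries (median 2028) and 2 to 39 counts pooled over the 3 control libraries (median 20). Of the 45 pairs of a member and a control library, 7 had a count of 0, and 5 of these were in control replicate 1, the deepest library. Ranked by mean CPM, they stood between places 3929 and 13424 of all models in the chilling group and between places 19155 and 21742 in the control group. The 15 together took 505, 461 and 230 CPM in chilling replicates 1, 2 and 3, against 1.84, 3.15 and 2.86 CPM in control replicates 1, 2 and 3. Exact 95% Poisson intervals, which cover counting error only, ran from 225 to 235.5 CPM for chilling replicate 3 and from 497 to 513 CPM for chilling replicate 1. They ran from 1.45 to 2.31 CPM for control replicate 1 and from 2.60 to 3.79 CPM for control replicate 2. Chilling replicate 3 was thus the lowest chilling library, and control replicate 1 the lowest control library, by more than counting error. Even so, all of the members' reads were 0.0399% ± 0.0148 of counts in the chilling libraries and 0.000262% ± 0.0000686 in the control libraries (SD, n = 3 each).

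Mean chilling levels ran from 6.42 to 55.6 CPM, with a median of 23.0 CPM. The other 12844 models with at least 5 CPM in every chilling library had a median of 30.8 CPM. The median was 62.2 CPM over the 2592 of them that were also called higher under chilling across all genes. Among the members, 7 averaged at least 30 CPM, 5 averaged between 10 and 30 CPM, and 3 averaged under 10 CPM. CPM is not corrected for gene length, so these levels order read numbers and not transcript numbers. RNA from several organs was mixed, so more cells that express a gene and more RNA per cell cannot be told apart.

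**Figure D2:**
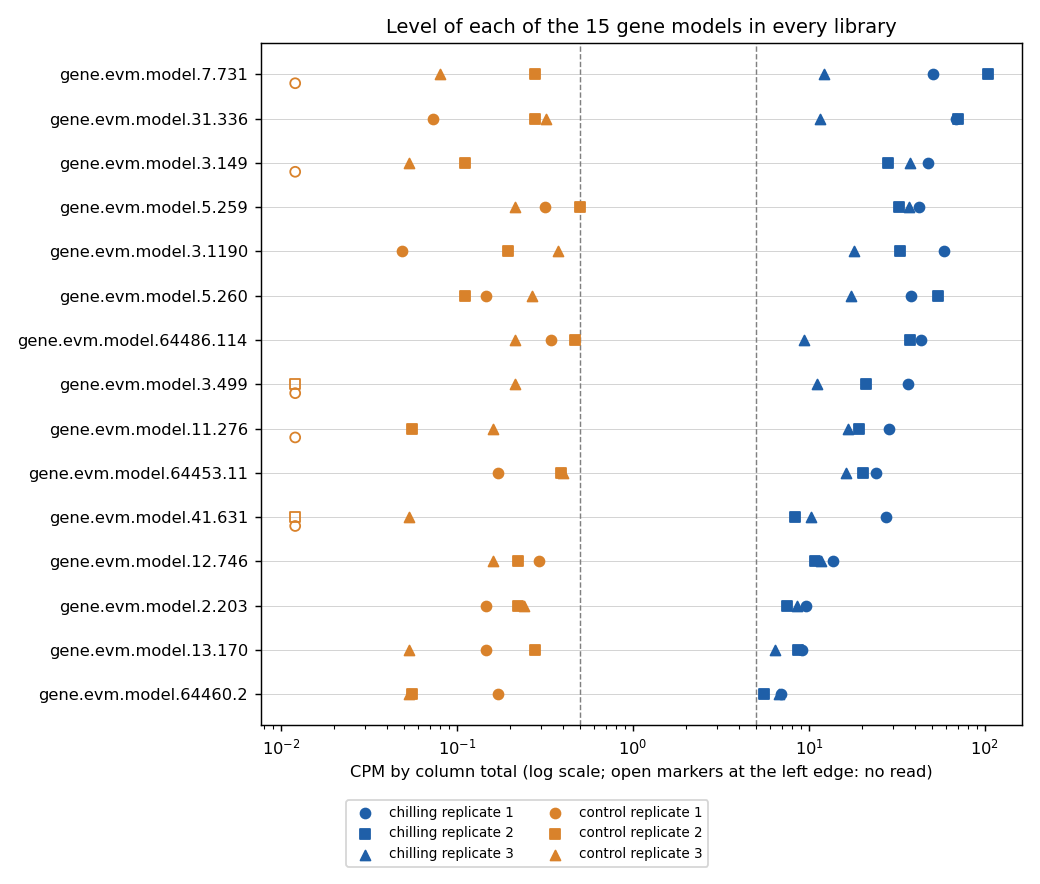
CPM of the 15 gene models (rows, highest chilling mean at the top) in the 3 chilling libraries (blue) and the 3 control libraries (orange) on a log scale, with open markers at the left edge for a count of 0. Dashed lines mark 0.5 and 5 CPM, the limits that chose the members, so the empty band between them is set by the rule. The rule limits the width of each row's blue cloud only through the minimum of 5 CPM.

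The most abundant member was gene.evm.model.7.731. It had 50.9, 104 and 12.2 CPM in chilling replicates 1, 2 and 3, against 0, 0.277 and 0.0801 CPM in control replicates 1, 2 and 3. Its mean of 55.6 ± 46.0 CPM under chilling (SD, n = 3) therefore covered an 8.48-fold range, with replicate 2 high and replicate 3 low. The control mean was 0.119 ± 0.142 CPM. Next came gene.evm.model.31.336, with 68.6, 70.7 and 11.5 CPM in the chilling libraries against 0.0728, 0.277 and 0.320 CPM in the control libraries. Here chilling replicates 1 and 2 were nearly equal, and replicate 3 alone was low.

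The third, gene.evm.model.3.149, was far more even under chilling. It had 47.5, 28.0 and 37.5 CPM in the chilling libraries, against 0, 0.111 and 0.0534 CPM in the control libraries. Its lowest chilling library stood 253-fold above its highest control library, the widest such gap among the members. The pooled CPM ratio was 715, with an exact 95% counting interval of 328 to 1949, because the control side rested on 6 counts.

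The next 3 had almost the same chilling mean, 37.1 CPM for gene.evm.model.5.259, 36.5 CPM for gene.evm.model.3.1190 and 36.5 CPM for gene.evm.model.5.260, but they differed in how steady it was. In the chilling libraries gene.evm.model.5.259 had 41.9, 32.4 and 36.9 CPM, against 0.316, 0.498 and 0.214 CPM in the control libraries. The model numbered next to it, gene.evm.model.5.260, had 38.2, 54.2 and 17.2 CPM under chilling, against 0.146, 0.111 and 0.267 CPM in controls. The levels of gene.evm.model.3.1190 were 58.9, 32.9 and 17.9 CPM under chilling, against 0.0485, 0.194 and 0.374 CPM in controls. Only the first of the 3 kept its chilling libraries within 1.30-fold of each other. The other two spanned 3.15-fold and 3.29-fold.

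At the low end, gene.evm.model.64460.2 had 6.93, 5.58 and 6.74 CPM in the chilling libraries, against 0.170, 0.0553 and 0.0534 CPM in the control libraries. The next lowest, gene.evm.model.13.170, had 9.08, 8.61 and 6.42 CPM under chilling, against 0.146, 0.277 and 0.0534 CPM in controls. Both lay close to the limit of 5 CPM, and both were even among the chilling libraries. The limit leaves a member with a low mean less room for spread. The lowest control level of all belonged to gene.evm.model.41.631, which had 27.3, 8.29 and 10.3 CPM in the chilling libraries, against 0, 0 and 0.0534 CPM (2 reads) in the control libraries. Its pooled ratio of 856 had a counting interval of 236 to 7072, so the size of its difference is poorly known.

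Some members just met the limits. The highest control levels were 0.498 CPM for gene.evm.model.5.259 and 0.470 CPM for gene.evm.model.64486.114, both in control replicate 2. Just outside, gene.evm.model.64474.10 had 76.5, 6.30 and 13.7 CPM under chilling but reached 0.507 CPM in control replicate 3. Likewise gene.evm.model.26.132 had 5.83, 5.61 and 12.1 CPM under chilling and reached 0.525 CPM in control replicate 2. At the chilling limit, gene.evm.model.64460.2 was just inside, with 5.58 CPM in chilling replicate 2, and gene.evm.model.13.170 followed with 6.42 CPM in replicate 3. Just outside, gene.evm.model.43.7 had 37.3 and 10.9 CPM in chilling replicates 1 and 3 and 4.83 CPM in replicate 2, and gene.evm.model.37.253 had 7.61 and 10.8 CPM in chilling replicates 1 and 2 and 4.65 CPM in replicate 3. The set has no natural edge at these limits.

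In the fit across all 19487 tested gene models (edgeR quasi-likelihood test, Benjamini-Hochberg adjusted p under 0.05, n = 3 per group), all 15 members passed the filter on low counts and were called higher under chilling, beside 16.2% of all tested models. The rule used this same contrast, so the count is a description and supports nothing. Fitted log2 fold changes ran from 5.69 to 9.82 (median 7.80), with standard errors from 0.35 to 1.31, while the median over all tested models was -0.02. The steadiest estimate was that of gene.evm.model.5.259, with a log2 fold change of 7.08 and a standard error of 0.35. The least steady was that of gene.evm.model.7.731, at 9.24 with a standard error of 1.31. Pooled CPM ratios ran from 42.4 to 856, and the 2 largest belonged to the members with the fewest control reads.

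Spread among the chilling libraries was not set by the rule beyond the minimum of 5 CPM, and it divided the members. The coefficient of variation (CV, the SD as a percentage of the mean) was above 50% in 7 members and between 11.4% and 29.2% in the other 8, with none in between. The boundary of 50% was placed after the values were seen, and gene.evm.model.5.260 lay just above it at 50.8%. The minimum of 5 CPM leaves a member with a low mean less room for a high CV. All 7 members above 50% averaged at least 15.3 CPM. Counting error alone would give a CV of 2.45% to 7.20% at these depths. Set against each member's own spread, counting error made up 0.0880% to 0.478% of the variance in the 7 uneven members, and between 1.32% and 39.8% in the other 8, with the highest share in gene.evm.model.64460.2. The median CV of the members was 29.2%, against 22.5% for the other 12844 models with at least 5 CPM in every chilling library and 23.8% for the 2592 of them called higher. A CV above 50% was seen in 8.79% of those 12844 models. No test of this difference was made.

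The uneven members were mostly low in the same library. Of the 7 with a CV above 50%, 6 were lowest in chilling replicate 3, and the exception was gene.evm.model.41.631, which was high in replicate 1 alone. Summed over these 7, the chilling level was 324, 328.5 and 89.7 CPM in replicates 1, 2 and 3. Summed over the other 8, it was 181, 132 and 140.5 CPM. The 7 were set apart by their CV in these same libraries, so a low replicate 3 helped to place a model among them, and the 2 sums are a description only. Among the 8 steadier ones, gene.evm.model.64460.2 had the smallest CV, 11.4%, and gene.evm.model.2.203 the next, 12.4%. The levels of gene.evm.model.2.203 were 9.58, 7.47 and 8.54 CPM in the chilling libraries, against 0.146, 0.221 and 0.240 CPM in the control libraries.

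**Figure D3:**
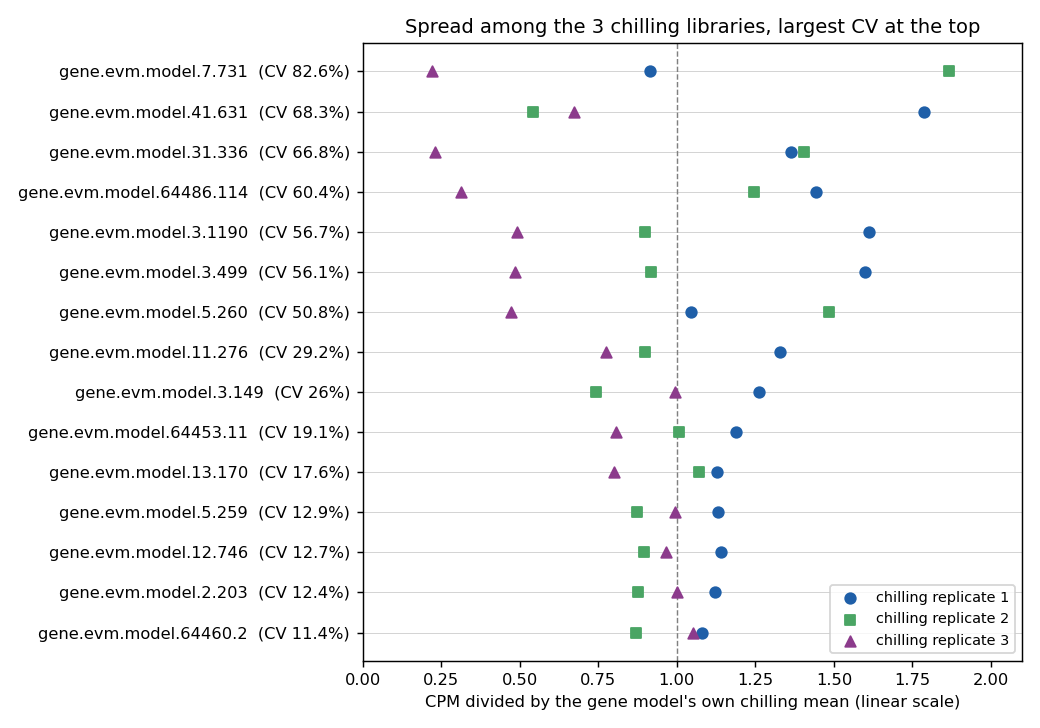
CPM of each member in the 3 chilling libraries, divided by the member's own chilling mean (linear scale, 1 marks the mean), with rows ordered by CV. The top 7 rows have a CV of 50.8% to 82.6% and in 6 of them replicate 3 (triangles) is the lowest, while the lower 8 rows stay within 1.72-fold from lowest to highest library.

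Over all 15 members, chilling replicate 1 was the highest library in 12 and replicate 2 in 3, and replicate 3 was the highest in none. Replicate 3 was the lowest in 9 and replicate 2 in 6. Among the other models with at least 5 CPM in every chilling library, replicate 3 was the highest in 53.6% and the lowest in 26.1%. Among all other models called higher, with no limit on their chilling level, it was the highest in 27.3% and the lowest in 48.6%. In the median member, replicate 3 stood at 69.4% of the mean of replicates 1 and 2, against 114% in the 12844 other models and 87.2% in the 2592 called higher. The ratio differed widely between members, from 15.8% in gene.evm.model.7.731 to 108% in gene.evm.model.64460.2. A lower level in chilling replicate 3 was therefore shared by many models that were higher under chilling, and by only part of the 15. These ranks and ratios used CPM by column total. The factors of the trimmed mean of M-values (TMM) were 0.848, 0.865 and 0.979 in chilling replicates 1, 2 and 3. Scaling library sizes by them lowers replicate 3 relative to replicates 1 and 2 in every model. With this scaling, replicate 3 was the lowest in 10 of the 15 members. The shares and ratios of the other models were not computed again with it, so they include this difference in scale.

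Identifiers have the form gene.evm.model followed by 2 numbers. The sources used here do not say whether consecutive second numbers are neighbours on a chromosome, so closeness below is closeness of numbers. The 15 members carried 12 different first numbers out of 868 in the table. There were 3 members with the first number 3, which is also the commonest, with 1014 models (3.88% of all). Their second numbers, 149, 499 and 1190, are at least 350 apart. The first number 5, with 797 models, held gene.evm.model.5.259 and gene.evm.model.5.260, the only consecutive pair. The other 10 first numbers held 1 member each, and gene.evm.model.64460.2 came from a first number with 3 models in all.

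Some members sat among other models that were higher under chilling. For the 30 numbers directly before or after a member, the table held 23 models, 2 of which were members themselves. Of the 21 models left, 19 were tested, 7 were called higher (36.8%, exact 95% binomial interval 16.3% to 61.6%) and 3 were called lower, beside 16.2% higher and 14.6% lower over all tested models (edgeR, adjusted p under 0.05). Widened to 5 numbers on either side, 82 models were tested, 18 were called higher (22.0%, interval 13.6% to 32.5%) and 11 were called lower. The share was 27.8% at a distance of exactly 2, 35.7% at 3, 16.7% at 4 and 5.56% at 5, each over 14 to 18 tested models. The lower end of the interval at a distance of 1 lies beside the share over all models, and the neighbours are few. Without chilling replicate 1 or control replicate 2, 4 of the 19 direct neighbours were called higher, beside 7.90% and 7.38% of all models tested in those 2 fits.

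Counted by member, 7 of the 15 (46.7%) had at least 1 directly numbered neighbour called higher. This was so for 24.5% of the 2592 other called models with at least 5 CPM under chilling and for 17.3% of all tested models. No test was made of this difference. The 7 were gene.evm.model.3.149, gene.evm.model.5.259, gene.evm.model.5.260, gene.evm.model.3.1190, gene.evm.model.3.499, gene.evm.model.64453.11 and gene.evm.model.64460.2. For the pair under the first number 5, the partner is one of the neighbours counted.

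**Figure D4:**
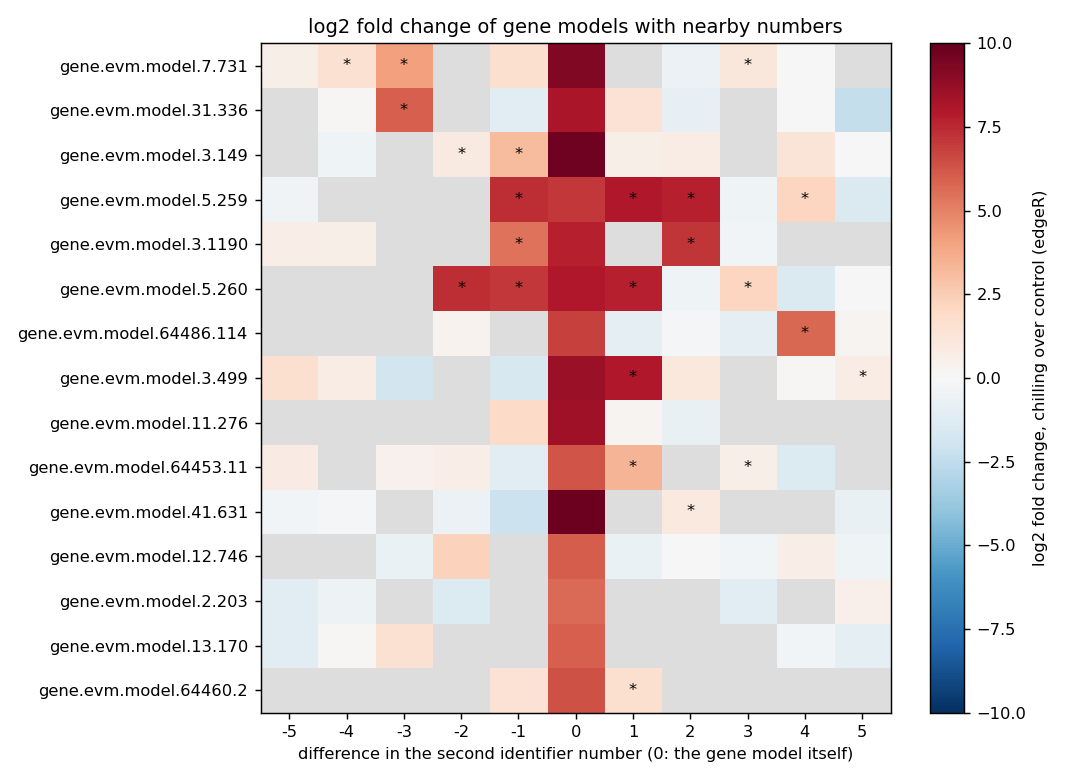
Fitted log2 fold change, chilling over control, of models numbered up to 5 before or after each member (column 0), on a colour scale from blue (lower under chilling) to red (higher). Stars mark neighbours called higher (edgeR adjusted p under 0.05), and grey cells are numbers with no model in the table or none tested. Dark red cells beside column 0 stand for 8 strongly higher neighbours of 7 members, and the other 8 rows hold none of these.

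The neighbours of 7 members included models that were themselves at least 16-fold higher under chilling, a limit placed after the values were seen. There were 8 such models among the 82 tested within 5 numbers (9.76%), beside 2.56% of all tested models. Of these 8, 4 were direct neighbours of a member. Without control replicate 2 the count was 5, in a fit that also called fewer models overall.

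The longest stretch was under the first number 5, where the 4 models numbered 258 to 261 were all called higher. The outermost, gene.evm.model.5.261, had 124, 146 and 69.6 CPM in the chilling libraries, against 0.582, 0.387 and 1.01 CPM in the control libraries. Its log2 fold change was 7.74 with a standard error of 0.60 (edgeR adjusted p = 0.00221). It was thus the most abundant of the 4, and it missed the rule only through its control level. At the other end, gene.evm.model.5.258 had 0.893, 0.326 and 0.316 CPM under chilling and no read in any control library. Pooled over the chilling libraries, its level was at least 19.1-fold above a floor of 3 counts pooled over the control libraries. This bound covers the control count only. Of the 45 pooled chilling reads, 25 came from replicate 1. This model missed the rule through its low chilling level. The next model after the stretch, gene.evm.model.5.262, was not called. Its log2 fold change was -0.43 with a standard error of 0.18 (edgeR adjusted p = 0.113). Beyond it, gene.evm.model.5.263 was again called higher, by less than gene.evm.model.5.261. Its log2 fold change was 2.17 with a standard error of 0.27 (edgeR adjusted p = 0.00456). The model before the stretch, gene.evm.model.5.257, was not tested.

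Under the first number 3, gene.evm.model.3.499 had 36.7, 21.1 and 11.1 CPM in the chilling libraries, against 0, 0 and 0.214 CPM in the control libraries. All 8 of its control reads were in control replicate 3. Its neighbour gene.evm.model.3.500 had 160, 125 and 124 CPM under chilling, against 0.437, 0.442 and 1.07 CPM in controls (log2 fold change 8.01, standard error 0.53, edgeR adjusted p = 0.00165). The neighbour was thus several times higher and more even than the member, and it exceeded the control limit only in control replicate 3. On the other side, gene.evm.model.3.498 was lower under chilling, with a log2 fold change of -1.59 and a standard error of 0.38 (edgeR adjusted p = 0.0249).

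Beside gene.evm.model.3.1190 lay 2 further strongly higher models. The first, gene.evm.model.3.1189, had 17.8, 6.13 and 5.79 CPM under chilling, against 0.0728, 0.111 and 0.667 CPM in the control libraries. The second, gene.evm.model.3.1192, had 94.8, 93.9 and 25.4 CPM under chilling, against 0.364, 0.442 and 1.12 CPM in controls. Both again exceeded the control limit only in control replicate 3, and in both, as in the member between them, chilling replicate 3 was the lowest chilling library. The number 1191 has no model in the table.

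Further away, gene.evm.model.7.728 stood 3 numbers before gene.evm.model.7.731, with 32.8, 68.6 and 26.0 CPM under chilling against 1.55, 3.29 and 4.22 CPM in controls. Its highest chilling library was replicate 2 and its lowest replicate 3, the same order as in the member. At 4 numbers after gene.evm.model.64486.114, gene.evm.model.64486.118 had 166, 161 and 99.6 CPM under chilling, against 0.194, 4.07 and 5.55 CPM in controls. The last of the 8, gene.evm.model.31.333, was scarce, with 2.68, 0.685 and 2.66 CPM under chilling against 0, 0 and 0.107 CPM in controls. Whether any of these neighbouring models overlap, or are near-identical copies that shared reads in the counting, could not be checked from identifiers, so values of adjacent numbers may not be independent.

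The other 8 members had no directly numbered neighbour that was called higher, among them gene.evm.model.41.631, gene.evm.model.2.203 and gene.evm.model.13.170. For gene.evm.model.2.203 and gene.evm.model.13.170 no such neighbour could be called. The numbers directly beside them had no model in the table or, for gene.evm.model.2.204, a model that was not tested. Both members with the widest chilling spread, gene.evm.model.7.731 and gene.evm.model.41.631, were in this group. Each had a model in the table only at the number before it, and that model was tested and not called.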

How the data were processed

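RNA sequencing counts for 3 chilling and 3 control libraries were used. The authors deposited raw read counts per gene model, without normalization. The submitters' processing notes name FastQC, HISAT2 and featureCounts, while their versions, the build, the annotation, the strand setting and the handling of multiply mapped reads are not stated in the sources used. Models that overlap or nearly match another can therefore share or lose reads. Members were found from CPM by column total, and 0 columns of the table were unmatched to a library.

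Of the 26139 models, 19487 passed filterByExpr at its defaults and were fitted together in R 4.3.3 with edgeR 4.0.16. TMM factors were 0.848 to 0.979 in chilling and 1.04 to 1.16 in control libraries, and group was the only term. The test was the robust quasi-likelihood F test, with Benjamini-Hochberg adjustment over the 19487 tested models and a threshold of 0.05. Standard errors were derived from the F statistic. The fit was tested on simulated counts. DESeq2 1.42.0, other scalings, filters and limits, and leaving out each library were tried as alternatives. The members and lists were chosen with earlier results of these data known. Models named singly were the 6 highest and 2 lowest by chilling mean, the 2 largest and 2 smallest by chilling CV, those with consecutive numbers and those nearest each limit, inside and outside. Other models named, the 16-fold limit and the CV limit were chosen after their values were seen. The planned search for members without any control read found 0. Intervals of CPM and of pooled ratios cover counting error only, and the depth set the limit of 0.5 CPM at 18.1 to 20.6 control reads. Binomial intervals of the shares of neighbours treat the models as independent, which could not be checked. No pair of libraries repeated another (chi-square per degree of freedom at least 101). Lists of functional genes and cell type markers were not applied, since identifiers carry no names.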

Additional observations from a re-analysis of the deposited data

How the results depend on the processing

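The 11 other fits were edgeR with other scalings, without the filter, with the replicate number as a block or without each library, and DESeq2. All 15 members were called higher in each, beside 7.38% to 20.5% of all tested models. The rule used the same contrast, so these counts are a description and support nothing. By total count the fitted log2 fold changes were 5.38 to 9.50, and the median of all models moved to -0.33. Without control replicate 3, which held every control read that gene.evm.model.3.499 or gene.evm.model.41.631 had, the largest fitted log2 fold change was 12.81, which rests on no control read and is no bound. The size of the set depended on its limits. A control limit of 0.25 CPM left 6 members, 0.0112% of chilling counts and 0 with a consecutive member, and a control limit of 1 CPM gave 40 members, 0.106% of counts, a median CV of 49.3% and 6 consecutive members. A chilling limit of 2 CPM gave 52 members, 0.0818% of counts, a median mean of 8.72 CPM and a median CV of 59.3%, and a limit of 10 CPM gave a median mean of 36.5 CPM over 10 members. With TMM-scaled CPM there were 21 members, including the 15, holding 0.0567% of counts. Thinned to the smallest total, 14 of the 15 were found. Chosen without 1 library, the members numbered 19 to 38, always including the 15, with 0.0397% to 0.137% of counts, a median mean of 12.7 to 30.0 CPM, a median CV of 20.6% to 55.7% and 2 to 6 consecutive members; the largest sets came without chilling replicate 3 (38) and control replicate 3 (37), and without chilling replicate 2 there were 27. Fewer libraries make the rule easier to meet and can drop no member, so the return of the 15 was fixed in advance. Without both libraries numbered 3, chosen after seeing the data, there were 65. Calls over all models numbered 3522 with the replicate block (replicate numbers did not pair the libraries, with correlations of deviations of 0.01, -0.01 and -0.05) and 2581 to 6352 without 1 library. The share of direct neighbours called higher was 21.1% to 36.8% without 1 library, beside 7.38% to 16.6% of all models in those fits. It was 26.3% with the block, beside 10.03% of all models, and 50.0% with DESeq2, beside 20.5% (8289 models called in either direction). Strongly higher neighbours within 5 numbers numbered 5 (without control replicate 2) to 9. The causes of these shifts were not tested. Control values rest on 2 to 39 reads, which limits every ratio.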

Other observations

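Many more near-silent models reached 5 CPM in part of the chilling group. Of the 6836 models under 0.5 CPM in every control library, 56 reached 5 CPM in exactly 1 chilling library and 40 in exactly 2. Of these 40, 23 met the limit in chilling replicates 1 and 2, 12 in replicates 1 and 3, and 5 in replicates 2 and 3. Chilling replicate 3, the lowest library for 9 of the 15 members, was thus the missing library in 23 of them.

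No member was without control reads. Among the 3952 models with no count in any control library, 9 reached 5 CPM in some chilling library, and 1 reached 1 CPM in all 3. That model, gene.evm.model.13.381, had 24.3, 62.0 and 2.15 CPM in chilling replicates 1, 2 and 3, on 680, 1900 and 68 reads. Pooled over the chilling libraries, its level was at least 1123-fold above a floor of 3 counts pooled over the control libraries. This bound covers the control count only, and not the spread among chilling libraries. Of the 2648 pooled chilling reads, 1900 came from replicate 2. The model was named after its values were seen, and it missed the limit of 5 CPM only in chilling replicate 3.

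The mirror image of the rule, under 0.5 CPM in every chilling library and at least 5 CPM in every control library, was met by 1 model. It was gene.evm.model.83.93, with 0.465, 0.0979 and 0.348 CPM in the chilling libraries against 8.18, 8.08 and 6.49 CPM in the control libraries. At lower limits the directions were closer. With at least 2 CPM in every library of the other group there were 52 models silent in the control group and 16 silent in the chilling group, and with at least 1 CPM there were 123 and 66. The control libraries were deeper than the chilling libraries, and the part this plays in the counts was not tested.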
